A study of Drosophila melanogaster with 4 samples.

Results

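Chromosome 4 of Drosophila melanogaster was examined for H3K9me1, a histone H3 whose lysine 9 carries a lone methyl group, in consecutive 5 kb tiles. All tiles of the assembled sequence, 1 to 1351857 on FlyBase release 5, were taken, whatever their values, and the chromosome itself was chosen with earlier results of these data known. They number 271 of the 33750 tiles into which all sequences named in the file headers divide, and the last tile is 1857 bp long. The data were lists of enriched clusters from chromatin immunoprecipitation and sequencing (ChIP-seq) of head nuclei from mixed adults of the wild-type strain Oregon-R (Oregon-R-modENCODE). There were 2 ChIP libraries, from a new lot of an H3K9me1 antibody according to the labels, and 2 inputs, and clusters in each ChIP library were called with the input of the same number. A further list covers the whole series, so it is not independent of the replicate lists. The labels give neither the sexes nor whether the replicates are separate populations of flies, so differences between replicates may be technical. Heads hold neurons, glia, muscle, fat body and other cells, and the share of cells that carry the mark at a site cannot be told apart from its level in each cell.

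Chromosome 4, the dot chromosome, is the smallest fly chromosome and is largely heterochromatic in character while still carrying expressed genes. In its gene-bearing arm, HP1a and the chromosome-specific protein POF bind widely, and the histone methyltransferase Eggless (SETDB1) contributes much of its H3K9 methylation. H3K9me1 is a lower methylation state of the residue whose di- and trimethylated states mark heterochromatin, and it can be a substrate for the enzymes that add further methyl groups. The numbering of the assembled sequence starts at the centromeric side.

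H3K9me1 clusters occupied a small part of chromosome 4, in short patches set between long empty stretches. The replicates shared most, but not all, of the tiles in which they placed clusters. Replicate 1 had 43 clusters over 95.4 kb, which is 7.06% of the chromosome. Replicate 2 had 39 clusters over 78.4 kb, or 5.80%. The mean was 6.43 ± 0.890% (SD, n = 2). The series list had 63 clusters over 135.1 kb, or 9.99%. A tile was called occupied when at least 1 base of it lay under a cluster. Replicate 1 occupied 44 tiles (16.2%) and replicate 2 occupied 41 (15.1%), where 68.8% and 64.7% of the tiles of 2L, 3L, 3R and X were occupied. The series list occupied 63 tiles (23.2%), against 86.9% of the tiles of those arms. Read depth is unknown, and so is the share of each tile to which reads could be aligned. The mark therefore cannot be said to be absent from an empty tile.

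**Figure D1:**
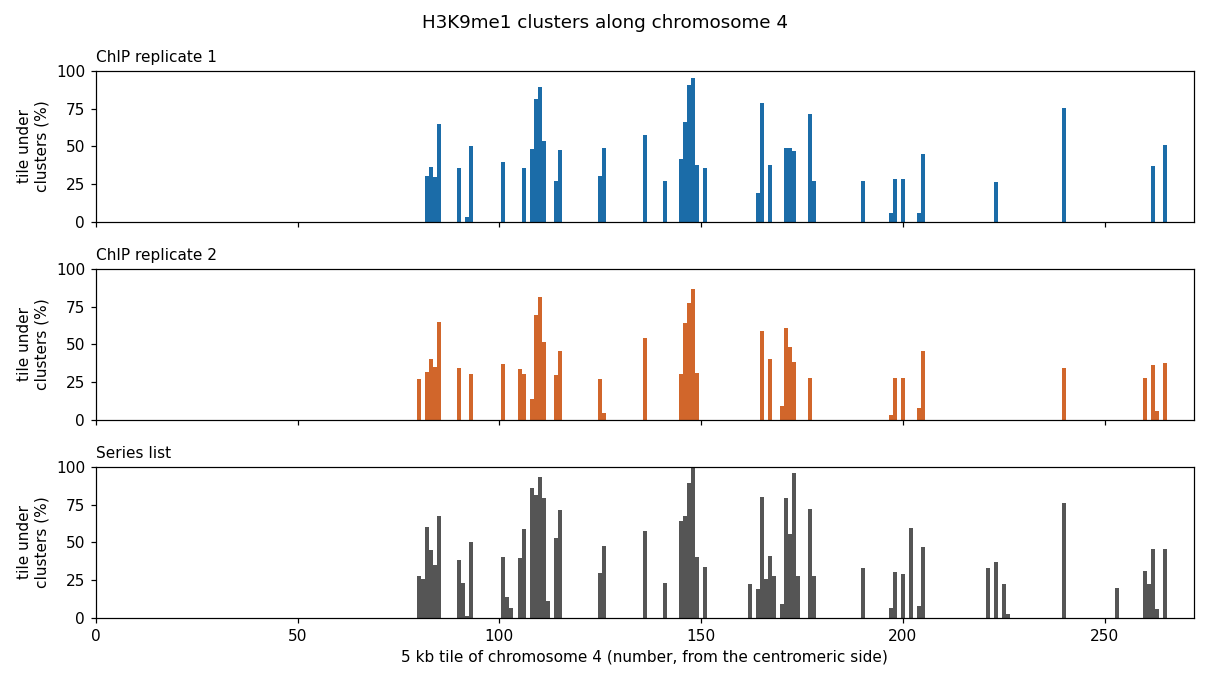
Percent of each 5 kb tile of chromosome 4 under enriched H3K9me1 clusters (y axis) against tile number (x axis), in ChIP replicate 1 (blue, top), ChIP replicate 2 (orange, middle) and the series list (grey, bottom). The first 79 tiles have no bar in any panel, and the tallest bar stands at tile 148 in both replicates.

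Clusters were unevenly spread along the chromosome. The first 395 kb, 79 tiles in a row, had no cluster in any list. Replicate 1 began with a cluster at 408283 and replicate 2 with one at 398198, in tile 80 (395001 to 400000). From 400001 to 900000, replicate 1 had 35 clusters covering 15.8% of the bases and replicate 2 had 31 covering 12.9%. This stretch, whose limits were set after its clusters were seen, held 82.8% of all bases under clusters on chromosome 4 in replicate 1 and 82.1% in replicate 2. From 900001 to the end, replicate 1 had 8 clusters covering 3.63% and replicate 2 had 7 covering 2.80%. The last 29.3 kb in replicate 1 and 29.4 kb in replicate 2 were again without a cluster.

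In bins of 100 kb the densest part was 500001 to 600000, with 21.1% of bases under clusters in replicate 1 and 19.6% in replicate 2. The bins that start at 700001 and 800001 followed, with 19.7% and 18.9% in replicate 1 and 14.4% and 14.1% in replicate 2. The bin between these dense bins, 600001 to 700000, was covered to 6.80% in replicate 1 and 4.32% in replicate 2, so the density did not change evenly along the stretch. At 1200001 to 1300000 replicate 1 had no cluster and replicate 2 had 1.

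Runs of neighbouring tiles occupied in both replicates were short. There were 20 such runs holding 37 tiles, 11 of them of a lone tile, and the longest spanned 5 tiles. The 5-tile run lay at 720001 to 745000, with a mean tile coverage of 66.1% in replicate 1 and 57.8% in replicate 2. A 4-tile run at 535001 to 555000 was covered to 68.0% and 54.0% on average, and another at 405001 to 425000 to 40.2% and 42.9%. The only other run of at least 3 tiles lay at 850001 to 865000, with 48.2% in replicate 1 and 49.0% in replicate 2. These 4 runs include 16 of the 37 tiles occupied in both replicates.

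The fullest tiles belonged mainly to 2 of these runs. Tile 148 (735001 to 740000) was covered to 94.96% in replicate 1, 86.9% in replicate 2 and in full in the series list. Tile 110 (545001 to 550000) was covered to 89.4% and 81.1%, and tile 147 (730001 to 735000) to 90.4% and 77.1%. Tile 109 (540001 to 545000) followed with 81.1% and 69.4%. Tile 165 (820001 to 825000), the fifth, lay outside the longer runs and was covered to 78.7% and 58.5%. No tile of chromosome 4 was covered in full in both replicates, where 1.41% of the tiles of 2L, 3L, 3R and X were. Only 9 tiles (3.32%) were covered to 50% or more in both, against 23.1% of the tiles of the arms.

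Empty stretches made up most of the chromosome. In all, 223 tiles (82.3%) were empty in both replicates, where 25.4% of the tiles of the 4 arms were. They formed 27 runs, and 6 runs of at least 10 tiles held 154 of the 223. After the first 395 kb, the longest were 1200001 to 1295000 (19 tiles) and 1025001 to 1110000 (17 tiles), both in the thinly occupied distal part. The series list had clusters in some of these tiles. It covered 1.06% of 1200001 to 1295000 and 1.96% of 1025001 to 1110000, and none of the first 395 kb. Altogether 15 of the 223 tiles held a series cluster, and 208 tiles were empty in all lists. On 2L, 3L, 3R and X, 2423 of the 4969 tiles empty in both replicates held a series cluster, and 2546 of 19579 tiles were empty in all lists. Long runs of empty tiles also lay near the centromeric ends of 2L and 3L, as given below.

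The replicates agreed on most occupied tiles. Both occupied 37 tiles (13.7%), against 58.9% of the tiles of the arms. These were 84.1% of the tiles of replicate 1 and 90.2% of those of replicate 2, and 77.1% of the 48 tiles occupied in either (95% exact Clopper-Pearson interval 62.7 to 88.0%, which treats neighbouring tiles as independent and covers counting error only). Over 2L, 3L, 3R and X the share was 79.0%. The overlap that unrelated lists would show grows with the part occupied, which was far larger on the arms. The 2 shares are therefore not on equal terms. Among the 37 tiles, the covered percentages of the replicates differed by a median of 4.00 points, and 26 tiles differed by at most 10 points. Among the 11536 such tiles of the arms the median was 7.58 points, and 6539 differed by at most 10 points. Replicate 1 was the higher in 27 of the 37 and replicate 2 in 10, and on the arms in 6953 and 4290 of the 11536. Over the 48 tiles, Pearson's r was 0.757 and Spearman's rho 0.758, a description of tiles that share 2 libraries.

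The disagreements were tiles that held a cluster, or part of a cluster, in 1 replicate and none in the other. The series list covered part of each of them. Replicate 1 alone occupied 7 tiles and replicate 2 alone occupied 4, where 1938 and 1136 of the 19579 tiles of the arms were. The fullest of the 11 on chromosome 4, tile 151 (750001 to 755000), was covered to 35.8% in replicate 1. No tile was covered to 50% or more in 1 replicate and empty in the other, where 1.34% of the tiles of the arms were. Few tiles of chromosome 4 reached 50% at all, 13 in replicate 1 and 10 in replicate 2. On the arms 6346 and 5380 of the 19579 did, so the contrast says little about agreement. Within tiles occupied in both, the largest difference was at tile 126 (625001 to 630000), with 48.7% in replicate 1 and 4.72% in replicate 2. Tile 177 (880001 to 885000) had 71.4% and 27.8%, and tile 240 (1195001 to 1200000) had 75.2% and 34.5%. In tiles 126 and 177 replicate 1 also had a cluster that no replicate 2 cluster touched, so a shared tile can hold an unmatched cluster. At tile 240 the clusters of both lists end 57 bp apart, at 1199836 in replicate 1 and 1199779 in replicate 2. The clusters start at 1196075 in replicate 1 and at 1198055 in replicate 2, so they differ on the proximal side. The least filled tile that counted as occupied was tile 263, with 0.0800% in replicate 1, the last 4 bp of a cluster that begins in tile 262.

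**Figure D2:**
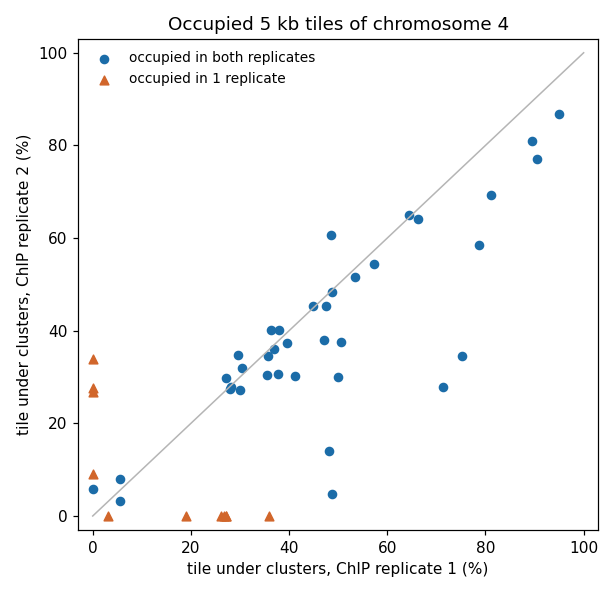
Percent of each tile under clusters in ChIP replicate 2 (y axis) against ChIP replicate 1 (x axis), for the 48 tiles of chromosome 4 occupied in either replicate. Blue points are the 37 tiles occupied in both, orange triangles the 11 occupied in 1 replicate, and the grey line marks equal values. Most blue points lie near the line, and 27 of the 37 lie on the replicate 1 side of it.

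Single clusters matched closely in position. Of the replicate 1 clusters on chromosome 4, 34 of 43 (79.1%) shared at least 1 bp with a replicate 2 cluster, and of the replicate 2 clusters 35 of 39 (89.7%) did. Over the 4 arms these shares were 77.0% and 85.2%. For 32 pairs each cluster overlapped only its partner. Their edges lay a median of 123 bp apart, and 49 of 64 edges (76.6%) lay within 200 bp. On the arms the median was 138 bp, with 60.8% of edges within 200 bp. Replicate 1 had the wider cluster in 22 of the 32 pairs and replicate 2 in 10, and on the arms in 4621 and 2920 of 7549. The authors' scores of the paired clusters ranked alike, with Spearman's rho of 0.787 and Pearson's r of 0.787 on chromosome 4, and 0.731 and 0.763 over 7549 pairs on the arms. The pairs on chromosome 4 leave out the highest-scoring cluster of each replicate. That of replicate 1, 731257 to 738782, overlapped more than 1 replicate 2 cluster. That of replicate 2, 1295457 to 1296834, overlapped none in replicate 1.

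At the level of bases, the part under clusters in both replicates was 0.653 of that under clusters in either (the Jaccard index) on chromosome 4. Sequences of the same length were taken as 71 consecutive windows of 1351857 bp from the first base of 2L, 3L, 3R and X. The windows had a median index of 0.632, and 42 of 71 lay below chromosome 4. In tile agreement, 29 of 71 windows lay below it. Chromosome 4 thus lay in the middle of windows most of which had several times its number of clusters. Both measures also depend on the part under clusters, so these ranks do not compare agreement on equal terms.

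Chromosome 4 was covered less than all but 1 of these windows in each list. In replicate 1 it was covered to 7.06%, against a window median of 35.2%, a ratio of 0.201. In replicate 2 it was covered to 5.80%, against 31.5%, a ratio of 0.184. The window below it was the last of 3L, 22981570 to 24333426, near the centromeric end, with 0.606% and 0.162% and only 5 clusters in replicate 1 and 1 in replicate 2. The next window above it was the last of 2L, 21629713 to 22981569, with 16.2% and 15.4%. In the last windows of 3L and 2L, 97.8% and 66.8% of tiles were empty in both replicates. Their longest runs of such tiles were 1080 kb and 305 kb, beside 395 kb on chromosome 4. No window of 3R or X had a mean over the replicates below 18.8%. This is a rank among all windows, not a test, since windows of 1 genome are no replicates.

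The rank was also low without the empty first stretch. Chromosome 4 from 395001 was covered to 9.97% in replicate 1 and 8.19% in replicate 2, and 2 of 101 windows of that length lay below it in each. Its densest stretch, 400001 to 900000, was covered less than most windows of 500 kb, with 7 of 194 below it in each replicate. Window medians there were 35.2% and 30.9%. Both comparisons were added after the values were seen.

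**Figure D3:**
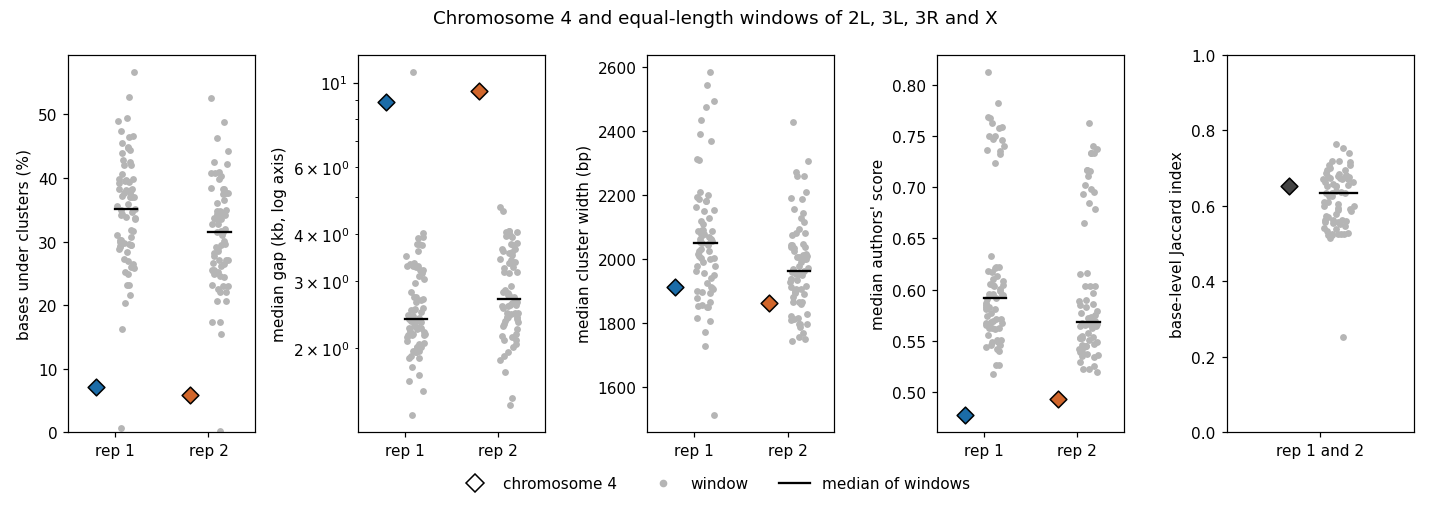
Chromosome 4 (diamonds) and 71 windows of its length on 2L, 3L, 3R and X (grey points, black line at their median), with replicate 1 left and replicate 2 right in each panel. Panels show percent of bases under clusters, median gap between clusters (kb, log axis), median cluster width (bp), median authors' score and the base-level Jaccard index of the replicates. Chromosome 4 lies near the bottom in coverage, near the top in gap, below all windows in score and inside their range in width and Jaccard index.

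Cluster number set chromosome 4 apart from the windows more than cluster width did. It had 43 clusters in replicate 1 and 39 in replicate 2, against window medians of 178 and 165, and 1 of 71 windows had fewer in each. Chromosome 4 clusters had a median width of 1913 bp (replicate 1) and 1864 bp (replicate 2), on average 1888.5 ± 34.6 bp (SD, n = 2). The window medians were 2051 bp and 1964 bp, ratios of 0.933 and 0.949, and 17 and 14 of 71 windows had narrower clusters. The middle of the width distribution therefore lay inside the range of the windows.

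Wide clusters were few. On chromosome 4, 1 of 43 clusters in replicate 1 (2.33%) and 1 of 39 in replicate 2 (2.56%) reached 5 kb, where 8.79% and 7.01% did on the arms. Both lay in the 5-tile run, at 731257 to 738782 (7.53 kb) in replicate 1 and at 731791 to 737346 (5.56 kb) in replicate 2. The widest cluster of the windows had a median width of 12046 bp in replicate 1 and 10407 bp in replicate 2. The next widest on chromosome 4 in replicate 1 were 1196075 to 1199836, 420691 to 423912, 821541 to 824512 and 549711 to 552672, from 3.76 down to 2.96 kb. In replicate 2 they were 420674 to 423917, 821517 to 824441, 549753 to 552577 and 676451 to 679173, from 3.24 down to 2.72 kb. Those that start at 420691, 821541 and 549711 in replicate 1 have their counterparts among the 5 widest of replicate 2. No replicate list holds a cluster narrower than 1301 bp anywhere in the genome, so narrower enrichment could not appear.

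Gaps between neighbouring clusters were longer on chromosome 4 and of mixed length. The median gap was 8.91 kb in replicate 1 and 9.51 kb in replicate 2, against window medians of 2.39 kb and 2.69 kb, ratios of 3.73 and 3.54. In replicate 1, 70 of 71 windows had a shorter median gap, and in replicate 2 all 70 windows with at least 2 clusters did. Short gaps were still present. Of the gaps on chromosome 4, 10 of 42 (23.8%) in replicate 1 and 7 of 38 (18.4%) in replicate 2 were at most 1 kb, where 28.1% and 26.0% were on the arms. Gaps of at least 50 kb made up 5 of 42 (11.9%) and 5 of 38 (13.2%), where 0.416% and 0.543% did on the arms. No window had more than 4 such gaps in either replicate. The longest gap between clusters was 108.3 kb in replicate 1 and 175.8 kb in replicate 2, both in the distal part.

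**Figure D4:**
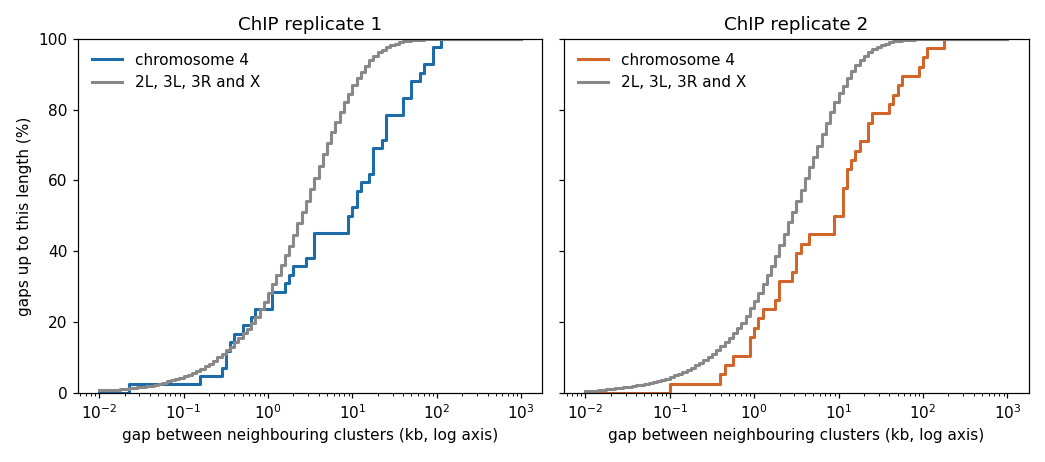
Percent of gaps between neighbouring clusters that are no longer than the length on the x axis (kb, log axis), for chromosome 4 (coloured) and for 2L, 3L, 3R and X (grey), in replicate 1 (left) and replicate 2 (right). The curves lie close to each other below 1 kb in replicate 1, and chromosome 4 lies to the right of the arms above it in both replicates.

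Clusters up to 5 kb apart were grouped into islands to describe this spacing, a rule added after the gaps were seen. Replicate 1 had 24 islands on chromosome 4, 16 of them of a lone cluster, and replicate 2 had 22, with 16 of a lone cluster. Clusters that stood alone were 37.2% and 41.0% of all on chromosome 4, against 11.1% and 13.4% on the arms. The islands with most clusters were 537239 to 552672 in replicate 1, with 6 clusters covering 88.2% of its 15.4 kb, and 722550 to 742047 in replicate 2, with 6 clusters covering 74.1% of its 19.5 kb. The longest island of replicate 1 was 721024 to 741886, with 5 clusters over 20.9 kb. The island with most clusters on the arms had 36 in replicate 1 and 34 in replicate 2. These are the largest of 3692 and 3932 islands, and a largest value tends to rise with the number of islands. The mean number of clusters per island was 1.79 and 1.77 on chromosome 4, against 3.38 and 3.00 on the arms. Beyond 900001, every island held a lone cluster in both replicates. In the series list the islands at 1005436 to 1009644 and at 1303872 to 1310300 held 2 clusters each.

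Authors' scores were low on chromosome 4 in each replicate, apart from a few clusters. The score is positive in enriched clusters, and its scale is not given. The median was 0.478 in replicate 1 and 0.494 in replicate 2, against window medians of 0.592 and 0.569, and none of the 71 windows had a lower one in either replicate. In the series list 3 of 71 windows did. Of the chromosome 4 clusters, 12 of 43 in replicate 1 and 10 of 39 in replicate 2 reached the median score of their whole list. Narrower clusters tended to have lower scores, with a Spearman's rho between width and score of 0.644 on chromosome 4 and 0.613 on the arms in replicate 1, and 0.572 and 0.586 in replicate 2.

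The highest-scoring clusters of replicate 1 were 731257 to 738782 (score 0.835), 541638 to 544577 (0.814), 420691 to 423912 (0.761), 676344 to 679203 (0.758) and 549711 to 552672 (0.733). At least 88.4% of the bases of each lay under a replicate 2 cluster. In replicate 2 the highest score stood at a different place. The cluster at 1295457 to 1296834, 1378 bp wide, had a score of 1.88, which ranks 2 among all 14643 clusters of that list. Replicate 1 had no cluster there, and the series list had one at 1295460 to 1297004 with a score of 1.24. The other leading clusters of replicate 2 were 1308196 to 1310288 (0.845), 549753 to 552577 (0.715), 1019604 to 1022263 (0.673) and 676451 to 679173 (0.651), of which at least 86.4% each lay under replicate 1.

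Clusters found in 1 replicate were mostly narrow. The 9 replicate 1 clusters that touched none in replicate 2 had a median width of 1556 bp, against 2060.5 bp for the 34 that touched one. The 4 of replicate 2 that touched none in replicate 1 had a median width of 1382 bp, against 1877 bp for the other 35. Scores overlapped in both lists. In replicate 1 they ran from 0.207 to 0.636 in the 9 and from 0.200 to 0.835 in the 34. In replicate 2 they ran from 0.360 to 1.88 in the 4, whose highest is the cluster at 1295457, and from 0.136 to 0.845 in the 35. On the arms the corresponding widths were 1543 and 2302 bp in replicate 1 and 1491 and 2100 bp in replicate 2, the same direction.

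Series clusters on chromosome 4 had about the replicate support of those on the arms. Of the 63, 33 (52.4%) touched a cluster in both replicates, 13 touched one in a single replicate and 17 (27.0%) touched none. On 2L, 3L, 3R and X, 46.6% touched both and 31.3% none. The 17 had a median width of 1241 bp, against 2517 bp for the 33. The narrowest cluster anywhere in the series list was 1001 bp wide, against 1301 bp in each replicate list. The median of the 17 thus lay below the narrowest replicate cluster. How far these unlike limits account for the missing support was not tested. Series clusters took in 98.9% of what replicate 1 covered on chromosome 4 and 99.8% of what replicate 2 covered. Since the series list is not independent of the replicates, this is no separate support for their clusters.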

How the data were processed

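The authors deposited 1 list of clusters per ChIP library and 1 for the series, each cluster with a score. Per the submitters' processing notes reads were aligned with Bowtie 0.12.7, and per the file headers positions are on FlyBase release 5. The caller, its threshold, the scale of the deposited score and the way replicates were combined are not given in the sources used here. Inputs entered only through those calls. Depth is unknown, so no counting interval is given for any cluster.

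Only features typed as enriched were used. Percentages per tile, gaps, overlaps (at least 1 bp) and windows were computed with NumPy 2.4.6, SciPy 1.17.1 and pandas 2.3.3 under Python 3.11.15, and plotted with Matplotlib 3.10.9. A cluster belonged to a window if its midpoint did. Interval functions were checked on simulated lists. With 1 group and 2 replicates no test was made, and 2R was not used. Alternatives covered scores, tiles, joining, lists, windows and each replicate left out.

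Members and rules were chosen with earlier results of these data known. Named regions were the 5 fullest tiles, runs of at least 3 tiles occupied in both replicates, the 3 longest empty runs, tiles at 50% or more in 1 replicate and 0 in the other, the 5 widest and 5 highest-scoring clusters per replicate, and depleted regions. Tiles 126, 151, 177, 240 and 263 were named after their values were seen. The gene table is on another assembly, so genes and sequences were not analysed here.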

Additional observations from a re-analysis of the deposited data

How the results depend on the processing

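With clusters scoring no lower than their list's median, coverage of chromosome 4 was 2.29%, occupied tiles 5.54%, the Jaccard index 0.620, the width ratio to the windows 0.910 and the gap ratio 10.5 ± 8.71 (SD, n = 2). In the series list coverage was 9.99%, occupied tiles 23.2%, the width ratio 0.912 and the gap ratio 3.10. With clusters up to 1 kb apart joined, the Jaccard index was 0.653, the width ratio 0.835 and the gap ratio 3.32. Occupied tiles, 15.7% in the replicates, were 14.0% with at least 10% and 4.24% with at least 50% of the tile under clusters, 11.2% and 25.4% with tiles of 2 kb and 10 kb, and 17.2% with tiles shifted by 2.5 kb. Of the windows, 0 of 67 lay below chromosome 4 without those that overlap the centromeric 1 Mb. Chromosome 4 kept its own empty centromeric side in that setting. With its empty first stretch left out, 2 of 101 windows lay below it, and 7 of 194 lay below its dense block. The last 2 settings were added after seeing the data. Tile agreement, 77.1%, ran from 64.3 to 76.9% over its alternatives, and was lowest with at least 50% of the tile under clusters. These values lie within its counting interval. That interval is wide and treats tiles as independent, so it does not show that the agreement is stable. With each replicate left out in turn, coverage was 5.80 and 7.06% and occupied tiles 15.1 and 16.2%, which lie within the SD of 2 replicates by construction. A stricter score or tile rule keeps fewer clusters or tiles by construction, and for the other settings the cause was not tested. No paired analysis was possible because no values of the inputs were analysed here: they contributed through the authors' calls alone. What can be said of empty tiles is limited by the unknown depth and by the unknown share of bases to which reads could be aligned.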

Other observations

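The series list typed 1 region of chromosome 4 as depleted, of 31 in that list, at 533258 to 534779 with a score of -0.147. It lies inside the densest 100 kb bin of the chromosome, and the nearest enriched cluster was 2459 bp away in replicate 1, 4518 bp away in replicate 2 and 853 bp away in the series list. No base of it lay under a cluster of either replicate.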
